A study of Saccharomyces cerevisiae with 6 samples.

Results

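The tRNAs that carry aspartate, asparagine, histidine and cysteine were followed through the yeast tRNA pool of wild type, *rtf1∆* and *paf1∆* cells. They were chosen by amino acid, as all sequences whose identifier names 1 of these 4 amino acids, and make up 5 of the 70 tRNA sequences counted. They are tRNA-Asp(GUC) sequence 1 (TRNA-ASP-GTC-1-1), tRNA-Asp(GUC) sequence 2 (TRNA-ASP-GTC-2-1), tRNA-Asn(GUU) (TRNA-ASN-GTT-1-1), tRNA-His(GUG) (TRNA-HIS-GTG-1-1) and tRNA-Cys(GCA) (TRNA-CYS-GCA-1-1). The rule uses no measured value.

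tRNA-HySeq sequences short fragments cut by partial hydrolysis from gel-purified tRNA, here 19 to 35 nucleotides (nt) long. The series has 6 libraries of *Saccharomyces cerevisiae*, 2 per genotype. Wild type cells are strain DAS217, *rtf1∆* cells are DAS549 and *paf1∆* cells are DAS516. All were grown at 30 °C in YEP medium with 2% dextrose to an A600 of 0.6 to 0.8. Both deletions are listed with *HIS3* as the replacing marker, in a *his3* parent, while the full genotype of DAS217 is not given in the sources used here, so a difference in strain background cannot be told apart from the deletions. Paf1 and Rtf1 are subunits of the Paf1 complex, which travels with RNA polymerase II. Their transcripts are not among the sequences counted, so the deletions could not be checked in the counts.

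Each of these amino acids has a pair of codons that end in U or C, and a single anticodon that begins with G reads both. Aspartate is coded by GAU and GAC, asparagine by AAU and AAC, histidine by CAU and CAC, and cysteine by UGU and UGC. In many bacteria and in animals the first anticodon base of the aspartate, asparagine and histidine tRNAs is exchanged for queuosine, a modification that budding yeast does not make. tRNA-His is set apart by an additional G that the enzyme Thg1 places on its 5′ end after transcription. RNA polymerase III makes these tRNAs from promoters that lie inside the genes, an A box and a B box that TFIIIC binds.

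The gene sequences are shown because the anticodon, the copy number and the stretches that the aspartate sequences share decide what a fragment count can tell. They come from the R64 reference (RefSeq) and were matched by amino acid and by the deposited reference length, since the deposited tables hold lengths and no letters. They are written 5′ to 3′ as DNA, with the anticodon in capitals.
tRNA-Asp(GUC) sequence 1: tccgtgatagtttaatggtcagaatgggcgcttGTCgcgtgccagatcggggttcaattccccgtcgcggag
tRNA-Asp(GUC) sequence 2: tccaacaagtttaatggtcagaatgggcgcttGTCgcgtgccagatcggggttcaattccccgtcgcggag
tRNA-Asn(GUU): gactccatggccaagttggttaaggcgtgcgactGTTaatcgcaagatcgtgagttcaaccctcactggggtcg
tRNA-His(GUG): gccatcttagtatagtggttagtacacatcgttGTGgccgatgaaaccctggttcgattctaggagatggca
tRNA-Cys(GCA): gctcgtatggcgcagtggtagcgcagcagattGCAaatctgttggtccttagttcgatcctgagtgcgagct

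The 5 sequences stand for 37 of the 275 nuclear tRNA genes, on 15 chromosomes, and none of the 37 has an annotated intron. tRNA-Asp(GUC) sequence 1 is encoded by 15 identical genes of 72 nt, tRNA-Asn(GUU) by 10 genes of 74 nt, tRNA-His(GUG) by 7 genes of 72 nt and tRNA-Cys(GCA) by 4 genes of 72 nt. tRNA-Asp(GUC) sequence 2 has 1 gene of 71 nt. The G and C content ran from 47.2% in tRNA-His(GUG) to 56.9% in tRNA-Asp(GUC) sequence 1. The motif GTTCNANNC, written here for the core of the B box, was found once on the sense strand of each of the 5 sequences, and in each it began 21 bases from the 3′ end. It was present in 98.2% of the 275 nuclear tRNA genes on the sense strand and in 0.727% on the antisense strand, so the match does not set the members apart.

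**Figure D1:**
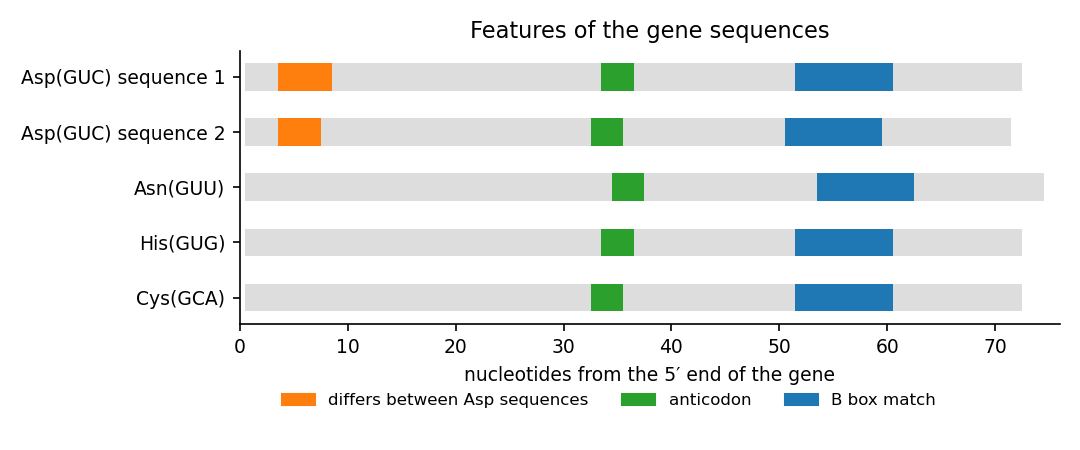
Position along the gene, in nucleotides from the 5′ end, of the anticodon, of the B box match and of the bases that differ between the aspartate sequences. Grey bars are the whole gene sequences of 71 to 74 nt. The B box match lies at the same distance from the 3′ end in all 5, and the aspartate sequences differ only near the 5′ end.

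The aspartate sequences differ in 1 short stretch next to the 5′ end, in capitals here because only a fragment that covers part of it can be assigned to 1 of them.
tRNA-Asp(GUC) sequence 1: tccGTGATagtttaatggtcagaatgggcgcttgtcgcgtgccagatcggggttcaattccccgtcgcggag
tRNA-Asp(GUC) sequence 2: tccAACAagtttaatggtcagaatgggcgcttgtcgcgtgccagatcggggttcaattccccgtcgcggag

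They share their first 3 and last 64 nt, and 68 of 72 aligned positions are identical (94.4%). All other pairs among the 5 sequences were 43.2 to 58.7% identical. At the shortest fragment length of 19 nt, 46 of the 54 windows of sequence 1 (85.2%) and 46 of the 53 windows of sequence 2 (86.8%) are present in both. At 35 nt this was 30 of 38 windows (78.9%) and 30 of 37 windows (81.1%). How the alignment placed fragments that fit both is not given in the sources used here, so counts of either aspartate sequence alone are uncertain, and their sum is given beside them. No window of tRNA-Asn(GUU), tRNA-His(GUG) or tRNA-Cys(GCA) at either length occurs in another nuclear tRNA gene.

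The gene for tRNA-Asp(GUC) sequence 2, YNCN0008C, lies on the minus strand at chrXIV:519099-519169 (R64). Its first 7 bases overlap an annotated long terminal repeat of a Ty1 retrotransposon, at chrXIV:519163-519496 on the plus strand, and these bases include the whole stretch in which it departs from sequence 1. It is the only 1 of the 37 genes that overlaps an annotated long terminal repeat. The nearest gene on its other side is *POR1*, which encodes the mitochondrial porin, 254 bp away.

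Wild type and *rtf1∆* libraries held 519302 to 1435676 tRNA reads (5.64 to 6.76% of the reads of a library), against 8259323 and 7906642 in *paf1∆* cells (87.9% and 87.4%). All 70 reference sequences are listed 3 nt longer for the *paf1∆* libraries than for the others, so genotype and alignment reference cannot be told apart in any comparison with *paf1∆* cells. Going by the library names, set 1 holds wild type replicate 1 and set 2 holds wild type replicate 2 with both *rtf1∆* libraries, while the *paf1∆* names carry no set. The labels do not say that libraries of a genotype came from separate cultures, so p-values measure the spread between these libraries, which may be technical. All values are relative to the tRNA reads of a library, and an amount per cell was not measured.

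The 5 sequences together took 21.1% and 24.1% of the tRNA reads in wild type replicates 1 and 2. In *rtf1∆* cells they took 17.6% and 18.7%, and in *paf1∆* cells 15.3% and 11.9%. The *paf1∆* libraries were below all others and the *rtf1∆* libraries lay between, without overlap. Each value of a member rests on 1510 to 472100 reads, so the 95% Wilson interval of a share was at most 0.092 percentage points to either side. These intervals cover counting error only, since PCR copies of 1 molecule are counted as separate reads. For each member, the intervals of libraries of 1 genotype did not overlap.

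**Figure D2:**
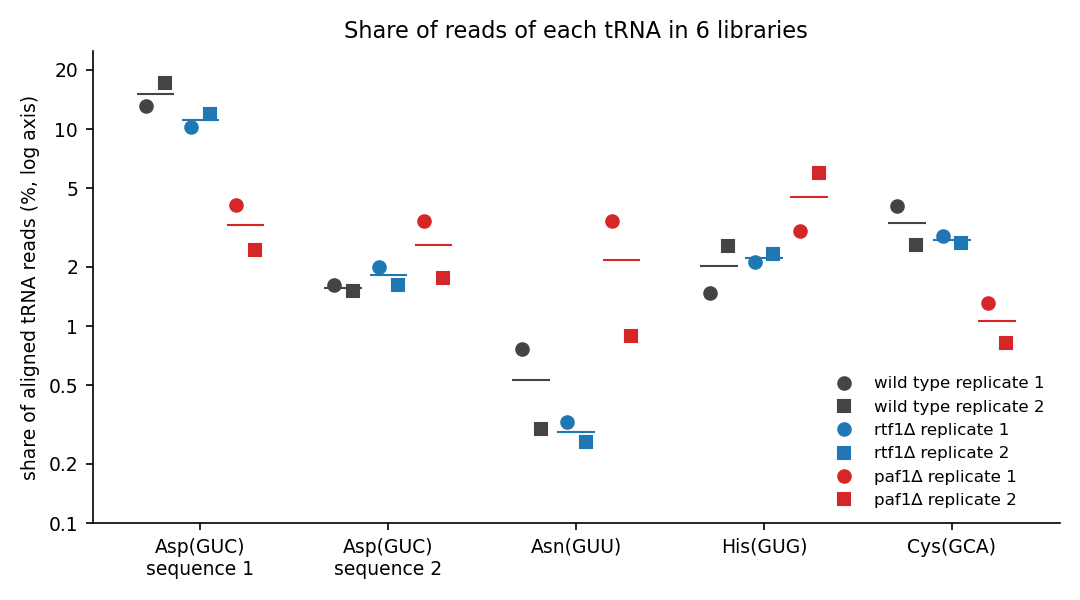
Share of aligned tRNA reads (%, log axis) of the 5 sequences in each of the 6 libraries. Circles are replicate 1, squares are replicate 2 and lines are group means. tRNA-Asp(GUC) sequence 1 and tRNA-Cys(GCA) are lowest in both *paf1∆* libraries, and tRNA-Asn(GUU) is highest there.

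tRNA-Asp(GUC) sequence 1, the product of most aspartate tRNA genes, was the second most counted tRNA sequence in every wild type and *rtf1∆* library. Its share was 13.2% and 17.1% in wild type, 10.3% and 11.9% in *rtf1∆*, and 4.1% and 2.44% in *paf1∆* cells. Every *rtf1∆* value was below the lower wild type value, and the *paf1∆* values were below all 4. Its rank by count was 5 and 10 in the *paf1∆* libraries. tRNA-Asp(GUC) sequence 2 took 1.62% and 1.52% in wild type, 2.0% and 1.62% in *rtf1∆*, and 3.42% and 1.76% in *paf1∆* cells. The *paf1∆* values were above both wild type values, and *paf1∆* replicate 2 was below *rtf1∆* replicate 1. The *paf1∆* libraries differed from each other by 1.94 times.

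tRNA-Asn(GUU) was the least counted of the 5 in all wild type and *rtf1∆* libraries, with 0.761% and 0.3% in wild type and 0.324% and 0.257% in *rtf1∆* cells. In *paf1∆* cells its share was 3.43% and 0.89%. Both *paf1∆* values were above all others, and tRNA-Cys(GCA) was the least counted of the 5 in both *paf1∆* libraries. Libraries of 1 genotype differed most for this tRNA. Wild type replicate 1 was 2.54 times wild type replicate 2 and *paf1∆* replicate 1 was 3.85 times replicate 2. tRNA-His(GUG) took 1.48% and 2.55% in wild type, 2.12% and 2.33% in *rtf1∆*, and 3.05% and 5.97% in *paf1∆* cells. The *rtf1∆* values lay between the wild type values, and the *paf1∆* values were above them. tRNA-Cys(GCA) took 4.1% and 2.57% in wild type, 2.85% and 2.64% in *rtf1∆*, and 1.31% and 0.826% in *paf1∆* cells, where both values were below all others.

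The comparison of *paf1∆* with wild type asks which tRNAs take a different part of the pool when the Paf1 subunit is absent. tRNA-Cys(GCA) passed the test, lower in *paf1∆* cells. tRNA-Asp(GUC) sequence 1 was lower and tRNA-Asn(GUU) higher in both *paf1∆* libraries than in both wild type libraries, and neither passed. Counts were brought to a common library total with TMM factors (CPM) and compared by the quasi-likelihood test of edgeR, with Benjamini-Hochberg adjustment over all 70 sequences and a threshold of 0.05. Of the 5 sequences, 1 passed, where 18.6% of all 70 did (8.57% higher and 10% lower). An unadjusted p under 0.05 was found for 3 of the 5, against 28.6% of all 70. The groups did not overlap for 4 of the 5, of which 2 were higher and 2 lower, against 61.4% of all 70 (27.1% higher and 34.3% lower).

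tRNA-Cys(GCA) had 34227 and 30091 CPM in wild type and 10012 and 11029 CPM in *paf1∆* cells. On this scale the groups lay far apart and their libraries close together. As shares of reads, libraries differed 1.59 times within wild type and 1.58 times within *paf1∆*. The TMM factors of the *paf1∆* libraries in this comparison were 1.31 and 0.749. The log2 fold change was -1.61 (SE 0.45, edgeR adjusted p = 0.0498, n = 2 libraries per genotype), that is 3.06-fold lower, in 2 of 2 *paf1∆* libraries. The call is at the threshold. It was lost without any 1 of the 4 libraries (edgeR adjusted p = 0.0894 to 0.291), with median-of-ratios scaling (adjusted p = 0.056) and with counts summed by anticodon (adjusted p = 0.0778). The log2 fold change stayed between -1.7 and -1.35 in these fits.

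tRNA-Asp(GUC) sequence 1 had 109990 and 200479 CPM in wild type and 31400 and 32535 CPM in *paf1∆* cells. In CPM the wild type libraries differed from each other far more than the *paf1∆* libraries did. As shares of reads the order was the opposite, with 1.3 times within wild type and 1.68 times within *paf1∆*. The difference between the groups was -2.28 on the log2 scale (SE 0.67, edgeR adjusted p = 0.0579). It passed with total counts (adjusted p = 0.00569), in DESeq2 (0.00017) and with all 6 libraries in 1 fit (0.0151). It did not pass with median-of-ratios scaling (edgeR adjusted p = 0.0632) or with the replicate numbers as a block (0.156). With 1 library left out the log2 fold change ran from -2.48 to -1.78. tRNA-Asp(GUC) sequence 2 had 13570 and 17748 CPM in wild type and 26160 and 23505 CPM in *paf1∆* cells. The aspartate sequences thus lay on opposite sides of wild type, with a log2 fold change of 0.67 for sequence 2 (SE 0.44, edgeR adjusted p = 0.294, and 0.0486 in DESeq2). With their counts added, the log2 fold change of tRNA-Asp(GUC) was -1.38 (SE 0.52, edgeR adjusted p = 0.0928 over 43 anticodon sums). The sum passed in DESeq2 (-1.55, adjusted p = 0.0058) and with all 6 libraries in 1 fit (-1.51, edgeR adjusted p = 0.0387). The sum did not pass with median-of-ratios scaling (edgeR adjusted p = 0.12), with total counts (0.059) or with the replicate numbers as a block (0.25). With 1 library left out its log2 fold change ran from -1.78 to -1.11.

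tRNA-Asn(GUU) had 6362 and 3510 CPM in wild type and 26245 and 11891 CPM in *paf1∆* cells. The groups did not overlap, but the libraries spread within both. On the log2 scale the difference was 1.95 (SE 0.58, edgeR adjusted p = 0.0579). This call was gained under other scalings, in DESeq2 and in a fit of all 6 libraries, where the adjusted p was 0.01 with total counts, 0.0262 with median-of-ratios scaling 0.0192 with all 6 libraries and 0.000455 in DESeq2. Counts summed by anticodon gave a log2 fold change of 2.23, which did not pass (edgeR adjusted p = 0.0778). The log2 fold change was 2.65 without wild type replicate 1 and 2.41 without *paf1∆* replicate 2. It was smaller without wild type replicate 2 (1.58) and without *paf1∆* replicate 1 (1.35). tRNA-His(GUG) had 12364 and 29807 CPM in wild type and 23325 and 79768 CPM in *paf1∆* cells. On this scale the groups overlapped, and *paf1∆* replicate 2 stood above the rest. The fitted log2 fold change was 1.29 (SE 0.76, edgeR adjusted p = 0.266). It was 2.0 and passed without *paf1∆* replicate 1 (edgeR adjusted p = 0.0152), and was 0.15 without *paf1∆* replicate 2.

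In the comparison of *rtf1∆* with wild type, which asks the same of the Rtf1 subunit, none of the 5 sequences passed edgeR's test, none had an unadjusted p under 0.05 and none passed in DESeq2, where 5.71% of all 70 passed in edgeR (0% higher and 5.71% lower) and 25.7% had an unadjusted p under 0.05. The groups did not overlap for 1 of the 5, which was higher in *rtf1∆* cells, against 55.7% of all 70 (30% higher and 25.7% lower). The wild type libraries are those of the comparison above.

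tRNA-Asp(GUC) sequence 2 was that sequence, with 12330 and 16312 CPM in wild type and 21076 and 18846 CPM in *rtf1∆* cells. Its log2 fold change was 0.48 (SE 0.39, edgeR adjusted p = 0.412). tRNA-Asp(GUC) sequence 1 had 99947 and 184265 CPM in wild type and 108537 and 137959 CPM in *rtf1∆* cells. The *rtf1∆* values lay between the wild type values, with a log2 fold change of -0.21 (SE 0.47, edgeR adjusted p = 0.863). The summed aspartate counts gave -0.11 (SE 0.38, edgeR adjusted p = 0.896).

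tRNA-Asn(GUU) had 5781 and 3226 CPM in wild type and 3419 and 2983 CPM in *rtf1∆* cells. Wild type replicate 1 was high and the other 3 libraries were alike. Over all 4 libraries the log2 fold change was -0.49 (SE 0.3, edgeR adjusted p = 0.229). Within set 2, that is without wild type replicate 1, it was 0.0091 (edgeR adjusted p = 0.971). tRNA-His(GUG) had 11235 and 27396 CPM in wild type and 22399 and 27102 CPM in *rtf1∆* cells. Here wild type replicate 1 was low. Over all 4 libraries the log2 fold change was 0.36 (SE 0.4, edgeR adjusted p = 0.543) and -0.12 within set 2 (adjusted p = 0.715).

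In CPM, tRNA-Cys(GCA) was the steadiest of the 5 in this comparison. It had 31102 and 27657 CPM in wild type and 30060 and 30720 CPM in *rtf1∆* cells. Its log2 fold change was 0.05 (SE 0.41, edgeR adjusted p = 0.948), and its sign turned with median-of-ratios scaling (-0.0073) and total counts (-0.28). Within set 2 the values were 0.16 for tRNA-Cys(GCA), -0.56 for tRNA-Asp(GUC) sequence 1 and 0.31 for tRNA-Asp(GUC) sequence 2, and none passed the threshold. Without wild type replicate 2, tRNA-Asn(GUU), tRNA-His(GUG) and tRNA-Asp(GUC) sequence 2 passed, with log2 fold changes of -0.85, 1.14 and 0.7 (edgeR adjusted p = 0.00754, 8.9e-05 and 0.0167). The calls therefore depended on which wild type library was kept.

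**Figure D3:**
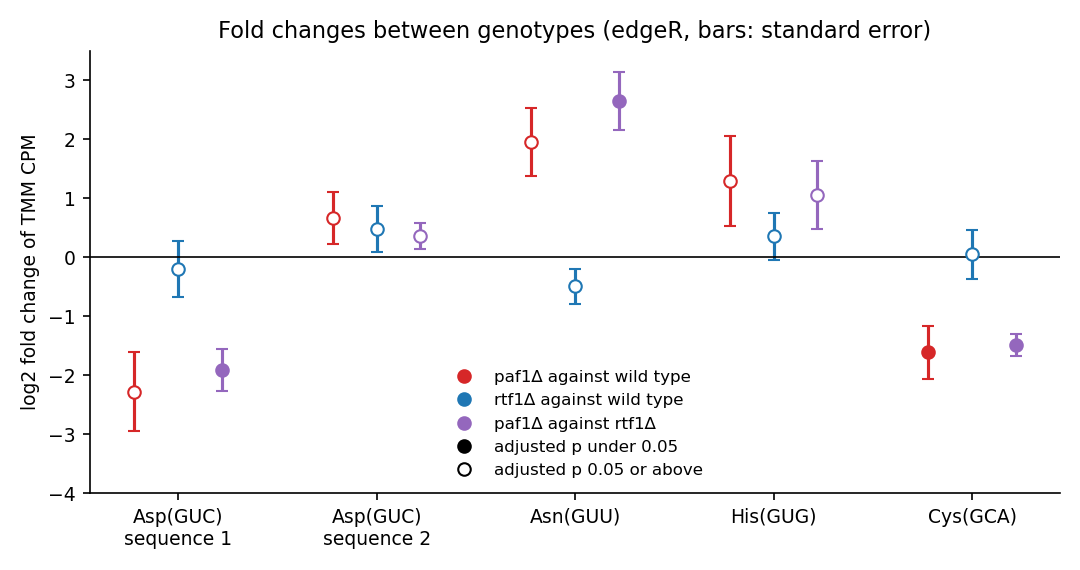
log2 fold change of TMM-scaled CPM for each sequence in the comparisons of *paf1∆* with wild type, *rtf1∆* with wild type and *paf1∆* with *rtf1∆*, fitted with edgeR on 4 libraries each. Bars are 1 standard error and filled points have an adjusted p under 0.05. tRNA-Cys(GCA) is filled in both comparisons with *paf1∆*, and no *rtf1∆* against wild type point is filled.

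The deletion strains were then set against each other. tRNA-Asn(GUU) was higher, and tRNA-Asp(GUC) sequence 1 and tRNA-Cys(GCA) were lower, in *paf1∆* than in *rtf1∆* cells. These 3 of the 5 sequences passed edgeR's test, 1 higher and 2 lower, where 25.7% of all 70 did (14.3% higher and 11.4% lower), and they were also those with an unadjusted p under 0.05, against 45.7% of all 70. For 4 of the 5, 2 higher and 2 lower, the groups did not overlap, against 81.4% of all 70 (41.4% higher and 40% lower).

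tRNA-Asn(GUU) had 3187 and 2781 CPM in *rtf1∆* and 26637 and 10765 CPM in *paf1∆* cells. Both *paf1∆* values were several times both *rtf1∆* values, although *paf1∆* replicate 1 was well above replicate 2. The log2 fold change was 2.65 (SE 0.5, edgeR adjusted p = 0.0234), higher in 2 of 2 libraries. It was 1.87 without *paf1∆* replicate 1 and 3.16 without *paf1∆* replicate 2, and passed in both fits. tRNA-Asp(GUC) sequence 1 had 101168 and 128592 CPM in *rtf1∆* and 31869 and 29456 CPM in *paf1∆* cells. Its log2 fold change was -1.91 (SE 0.36, edgeR adjusted p = 0.0234), and the call was lost without *rtf1∆* replicate 1 (adjusted p = 0.127) or replicate 2 (adjusted p = 0.323).

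tRNA-Cys(GCA) had 28019 and 28634 CPM in *rtf1∆* and 10162 and 9985 CPM in *paf1∆* cells. In CPM, libraries of 1 genotype were nearly equal, and the standard error was the smallest of the 5. As shares of reads, the *paf1∆* libraries differed 1.58 times. The log2 fold change was -1.49 (SE 0.18, edgeR adjusted p = 0.0102), lower in 2 of 2 libraries, and the call was lost without *rtf1∆* replicate 2 (adjusted p = 0.0668). tRNA-Asp(GUC) sequence 2 had 19645 and 17566 CPM in *rtf1∆* and 26550 and 21280 CPM in *paf1∆* cells. The groups did not overlap, and the log2 fold change of 0.36 did not pass (SE 0.22, edgeR adjusted p = 0.256). Without *paf1∆* replicate 2 it was 0.51 and passed (adjusted p = 0.0265). The summed aspartate counts gave -1.4 (SE 0.38, edgeR adjusted p = 0.0486). This call was lost with median-of-ratios scaling (adjusted p = 0.0518), with total counts (0.129), and without either *rtf1∆* library (0.304 and 0.43) or *paf1∆* replicate 2 (0.0513).

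tRNA-His(GUG) had 20879 and 25262 CPM in *rtf1∆* and 23673 and 72219 CPM in *paf1∆* cells. The groups overlapped, and the log2 fold change of 1.06 (SE 0.58, edgeR adjusted p = 0.244) was 0.04 without *paf1∆* replicate 2. Without *paf1∆* replicate 1 it was 1.67 and passed (edgeR adjusted p = 2.88e-08). A single library thus set the value of this tRNA.

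Ratios between members inside a library do not depend on scaling between libraries. tRNA-Asp(GUC) sequence 2 made up 11% and 8.13% of all aspartate reads in wild type, 16.3% and 12% in *rtf1∆*, and 45.4% and 41.9% in *paf1∆* cells. The genotypes did not overlap and the *paf1∆* libraries stood apart. On the log2 scale the ratio of sequence 2 to sequence 1 was -3.26 ± 0.34 in wild type, -2.62 ± 0.36 in *rtf1∆* and -0.37 ± 0.15 in *paf1∆* cells (SD, n = 2). Because the sequences share most of their windows and the *paf1∆* reference is 3 nt longer, a shift in how shared fragments were placed cannot be told apart from a shift in the tRNAs.

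The aspartate and asparagine tRNAs, which have 16 and 10 genes, were far apart in reads. There were 19.4 and 62.2 aspartate reads for each asparagine read in wild type, 37.9 and 52.6 in *rtf1∆*, and 2.19 and 4.71 in *paf1∆* cells. The *paf1∆* values were below all others, and the wild type values bracketed the *rtf1∆* values. The number of histidine reads for each cysteine read was 0.361 and 0.991 in wild type, 0.745 and 0.882 in *rtf1∆*, and 2.33 and 7.23 in *paf1∆* cells. Cysteine reads outnumbered histidine reads in all wild type and *rtf1∆* libraries, and the order was the opposite in both *paf1∆* libraries. With 2 libraries per genotype the smallest two-sided p of an exact test of such a ratio is 0.33, and none was made.

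**Figure D4:**
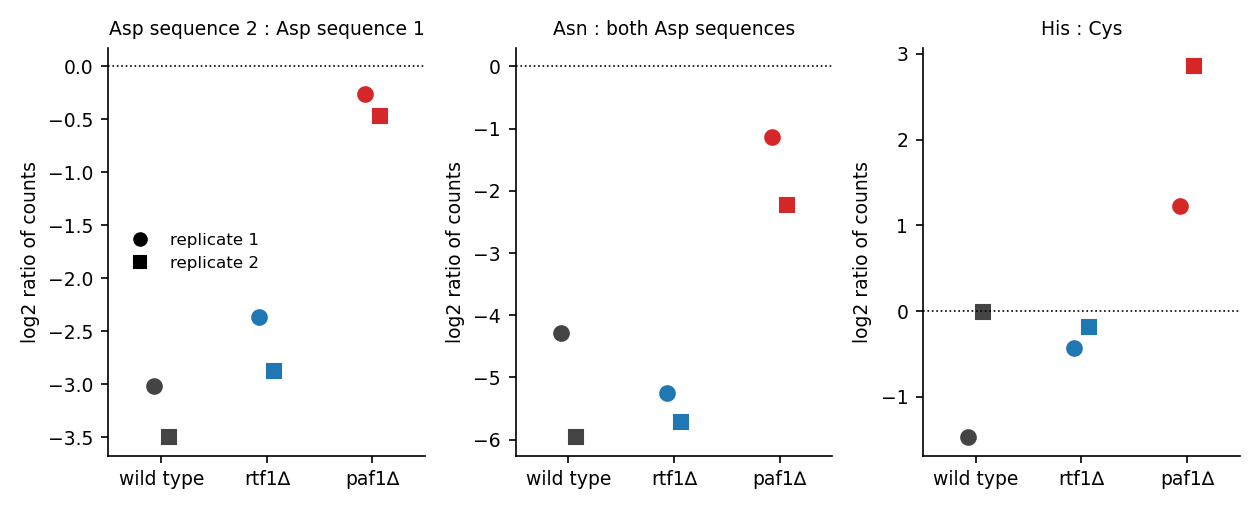
log2 ratio of counts between members inside each library, for tRNA-Asp(GUC) sequence 2 over sequence 1, tRNA-Asn(GUU) over both aspartate sequences, and tRNA-His(GUG) over tRNA-Cys(GCA). Circles are replicate 1 and squares are replicate 2. In all 3 panels both *paf1∆* libraries lie above the other 4 libraries.

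Levels were compared between amino acids on a scale of reads per nt of listed reference length, as a share of the sum of this quantity over all 70 sequences, divided by the number of genes. Per gene, this length-scaled share of aspartate was 0.98% and 1.22% in wild type, 0.806% and 0.882% in *rtf1∆*, and 0.506% and 0.284% in *paf1∆* cells. Cysteine, with the fewest genes, had 1.08% and 0.671% in wild type, 0.746% and 0.69% in *rtf1∆*, and 0.35% and 0.222% in *paf1∆* cells. Aspartate and cysteine overlapped in wild type, so their order there did not hold across libraries.

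Histidine had 0.224% and 0.38% per gene in wild type, 0.317% and 0.348% in *rtf1∆*, and 0.466% and 0.918% in *paf1∆* cells. Asparagine had 0.0785% and 0.0305% in wild type, 0.033% and 0.0261% in *rtf1∆*, and 0.357% and 0.0933% in *paf1∆* cells. In each wild type and *rtf1∆* library asparagine was lowest and histidine next. The highest amino acid exceeded the lowest by 13.8 to 40.0 times in the wild type and *rtf1∆* libraries, and by 1.45 and 9.84 times in the *paf1∆* libraries. Gene number therefore did not order these 4 tRNAs in reads in the wild type and *rtf1∆* libraries. In *paf1∆* replicate 1 it did. There the length-scaled shares before division were 8.1% for aspartate, 3.57% for asparagine, 3.26% for histidine and 1.4% for cysteine. In *paf1∆* replicate 2 it did not, as histidine (6.42%) was above aspartate (4.54%). How far recovery of fragments in cloning differs between tRNAs was not tested.

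**Figure D5:**
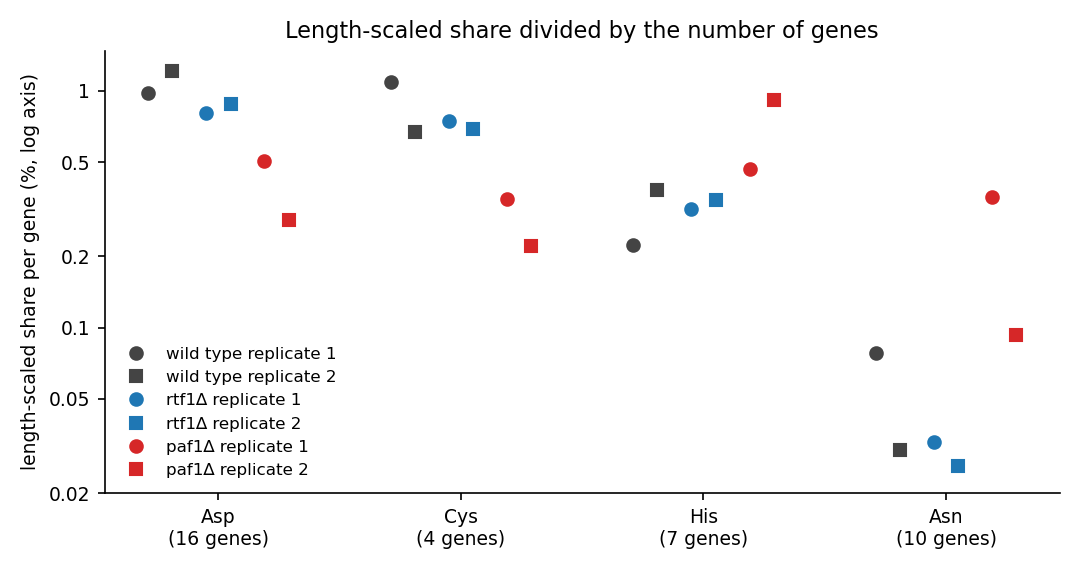
Length-scaled share of reads divided by the number of genes (%, log axis) for the aspartate, cysteine, histidine and asparagine tRNAs in each of the 6 libraries. Circles are replicate 1 and squares are replicate 2. Asparagine is lowest in all wild type and *rtf1∆* libraries, and the range between amino acids is narrowest in *paf1∆* replicate 1.

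The other sequences whose anticodon begins with G are 10 in all, for glycine, leucine, phenylalanine, serine and tyrosine. Most are tRNA-Phe(GAA) or tRNA-Tyr(GUA) sequences with similar values within each amino acid, so the 10 stand for fewer separate tRNAs. Of the 10, 2 were higher and 8 lower in *paf1∆* than in wild type cells, and their median was -0.93 on the log2 scale. All phenylalanine and tyrosine sequences were among the lower. None passed in edgeR or in DESeq2, and 1 had an unadjusted p under 0.05. Among the 5 members the median was 0.67, and over all 70 sequences it was -0.0066. In *rtf1∆* against wild type, none of the 10 passed in either tool, 2 had an unadjusted p under 0.05, and the median was 0.04. In *paf1∆* against *rtf1∆*, tRNA-Leu(GAG) passed in edgeR, with a log2 fold change of 1.58 (SE 0.28, edgeR adjusted p = 0.0222) and 2 of 2 libraries higher, and the median was -0.86. In this comparison 6 of the 10 had an unadjusted p under 0.05, and DESeq2 passed 2 higher and 4 lower. Of the 36 other sequences without an intron, 5 passed higher and 5 lower in *paf1∆* against wild type, 4 lower in *rtf1∆* against wild type, and 8 higher and 6 lower in *paf1∆* against *rtf1∆*. These lists are given by counts and medians and were not tested as groups.

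Over the 6 libraries, the log2 CPM of tRNA-Asp(GUC) sequence 1 and tRNA-Cys(GCA) ran together (Pearson's r = 0.94), and both ran opposite to tRNA-Asn(GUU) (r = -0.91 and -0.9). The sequences most like each member were tRNA-Gln(CUG) and tRNA-Gly(GCC) for tRNA-Asp(GUC) sequence 1 (r = 0.98 for both), tRNA-Arg(CCU) and tRNA-Arg(ACG) for sequence 2 (r = 0.96 and 0.95), and tRNA-Ser(UGA) and tRNA-Ser(CGA) for tRNA-Asn(GUU) (r = 0.98 and 0.97). For tRNA-Cys(GCA) they were tRNA-Ile(AAU) and the initiator tRNA-Met (r = 0.99 and 0.98). For tRNA-His(GUG) the highest r was 0.81 and 0.79, with a pair of tRNA-Lys(UUU) sequences. The 6 points share their genotypes, depth and reference lengths, and these correlations are descriptions with no test.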

How the data were processed

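tRNA-HySeq was analysed in 6 libraries, 2 per genotype, grouped by the sample labels. Library names number the *rtf1∆* replicates the other way round from the labels, which were followed. The authors clipped and trimmed reads, aligned them to unique yeast tRNA sequences, and deposited unnormalized IdxStats counts with the length of each reference. The submitters' processing notes name Bowtie and SAMtools, and their versions are not given in the sources used here.

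The 4 libraries of a comparison were fitted by themselves with edgeR 4.0.16 in R 4.3.3 (TMM, quasi-likelihood test, Benjamini-Hochberg adjustment at 0.05, two-sided). A minimum of 10 counts in 2 libraries removed none of the 70 sequences. Standard errors were obtained from the log2 fold change and its F value. The code was tested on simulated data. Correlations used log2 CPM with a prior count of 2.

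All 5 members are named, other sequences with an anticodon beginning with G where they passed, and for each member the 2 sequences of highest r. tRNA-Arg(UCU) was added after its values were seen. Members and lists were chosen with earlier results of these data known. Alternatives were RLE and total-count scaling, DESeq2 1.42.0, no filter or a minimum of 1000 counts, 1 fit of all 6 libraries, a replicate block, counts summed by anticodon, share per nt, and each library left out. Reads aligned to no tRNA entered only the share of aligned reads.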

Additional observations from a re-analysis of the deposited data

Results flagged for a closer look

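For 3 of the 5 sequences, against 25.7% of all 70, the deletion strains differed in edgeR's comparison of *paf1∆* with *rtf1∆*. With counts summed by anticodon, 16 of 43 sums passed, of which 3 were of members. In the fit of single sequences the log2 fold change was 2.65 for tRNA-Asn(GUU) (edgeR adjusted p = 0.0234). It was -1.91 for tRNA-Asp(GUC) sequence 1 (adjusted p = 0.0234) and -1.49 for tRNA-Cys(GCA) (adjusted p = 0.0102), with n = 2 libraries per genotype. This fit holds no wild type library and has its own scaling, so the comparisons with wild type do not subtract to these values. In 1 fit of all 6 libraries the same difference between the deletion strains was tested (edgeR adjusted p = 0.0118, 0.0217 and 0.012). Wild type cancels from this difference and enters only through scaling and spread. The log2 fold changes were therefore bound to be nearly the same, and are no separate support. The call for tRNA-Asp(GUC) sequence 1 was lost without *rtf1∆* replicate 1 (adjusted p = 0.127) or replicate 2 (0.323), and that for tRNA-Cys(GCA) without *rtf1∆* replicate 2 (0.0668). The *paf1∆* libraries also had references 3 nt longer and a higher share of aligned reads than the *rtf1∆* libraries, which cannot be told apart from genotype.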

How the results depend on the processing

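The sequences passing the threshold in *paf1∆* against wild type numbered 13, of which 1 was a member. The members passing were 3 with total counts, 4 in DESeq2, 3 with all 6 libraries in 1 fit, 2 with the replicate block, 0 with counts summed by anticodon, and 0 to 2 with 1 library left out. All sequences passing were 28 in DESeq2, 20 with the replicate block, 7 of the anticodon sums, and 0 to 17 with 1 library left out. Of the calls, 6 were higher and 7 lower, against 9 and 5 with median-of-ratios scaling (RLE), 12 and 8 with the block and 15 and 13 in DESeq2. In *rtf1∆* against wild type 4 sequences passed. There were 1 with total counts, 2 in DESeq2, and 0 at a minimum of 1000 counts, with all 6 libraries, with the replicate block and summed by anticodon, where 14, 5, 9 and 7 had an unadjusted p under 0.05. With 1 library left out, 0 to 23 sequences and 0 to 3 members passed. In *paf1∆* against *rtf1∆* 18 passed, with 29 under RLE, 35 in DESeq2 and 11 to 47 with 1 library left out, and 3 members passed, with 1 to 4 when 1 library was left out.

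Log2 fold changes that turned sign were all in *rtf1∆* against wild type. tRNA-Cys(GCA) was -0.0073 with RLE and in DESeq2, -0.28 with total counts and -0.033 to 0.16 with 1 library left out (below 0 without wild type replicate 2). With 1 library left out, tRNA-Asn(GUU) ran from -0.85 to 0.0091 and tRNA-His(GUG) from -0.12 to 1.14 (both turned without wild type replicate 1), tRNA-Asp(GUC) sequence 1 from -0.56 to 0.30 and the aspartate sum from -0.43 to 0.30 (both turned without wild type replicate 2, and the sum to 0.049 without *rtf1∆* replicate 1). The cause was not tested. The median of all 70 moved from -0.0066 to 0.13 (RLE) and 0.17 (all 6 libraries) in *paf1∆* against wild type, and from -0.06 to -0.12 (RLE) and -0.37 (total counts) in *rtf1∆* against wild type.

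Same-numbered libraries deviated together little (r = 0.01 to 0.25) and share only a number. With the replicate block the aspartate sum in *paf1∆* against *rtf1∆* had an adjusted p of 0.183 (log2 fold change -1.39). A fit without 1 library assumes that the lone library varies like the other group. Groups of 2 libraries, a reference that differs with genotype and fragments shared by the aspartate sequences limit these values. Aligned tRNA reads were also more numerous in both *paf1∆* libraries than in all others. All reads of a library, aligned or not, numbered 9401376 and 9043883 in *paf1∆* cells and 7678631 to 22330128 in the others. The part of either in these values was not tested.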

Other observations

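The genome annotation ties an aspartate tRNA to an arginine tRNA. Of the 15 genes of tRNA-Asp(GUC) sequence 1, 4 start 10 bp downstream of an arginine tRNA gene on the same strand. They lie at chrII:405960-406031, chrIV:568964-569035, chrX:355456-355527 and, on the minus strand, chrX:374424-374495 (R64). All 4 arginine genes belong to a set of 11 identical genes of 72 nt, and the 10 bp between the genes are the same in all 4 pairs. The pair YNCB0015W and YNCB0016W at chrII:405878-406031 on the plus strand is shown for its layout, 5′ to 3′, with the bases between the genes in capitals.
Arginine and aspartate gene pair: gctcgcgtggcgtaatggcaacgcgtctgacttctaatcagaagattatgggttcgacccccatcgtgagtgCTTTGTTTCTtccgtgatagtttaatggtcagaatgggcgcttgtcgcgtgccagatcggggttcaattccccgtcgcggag

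The reads of these partners were set side by side after their values had been seen. For each tRNA-Arg(UCU) read, whose reference has the same length, there were 12.5 and 22.2 aspartate reads in wild type and 7.91 and 13 in *rtf1∆* cells. In *paf1∆* cells there were 0.388 and 0.203. tRNA-Arg(UCU) took 1.18% and 0.842% of tRNA reads in wild type, 1.55% and 1.03% in *rtf1∆*, and 19.4% and 20.7% in *paf1∆* cells, and its log2 fold change in *paf1∆* against wild type was 4.43 (SE 0.77, edgeR adjusted p = 0.0113), higher in 2 of 2 libraries. This call was lost without wild type replicate 1 (log2 fold change 4.58, edgeR adjusted p = 0.207) or replicate 2 (4.43, adjusted p = 0.368). Most aspartate genes and most of the 11 arginine genes are not in such pairs, the counts do not tell gene copies apart, and whether the neighbouring genes have any part in these values was not tested. The longer *paf1∆* reference moves with this ratio and cannot be told apart from genotype. The paper lists a tRNA-Arg(UCU) probe for its northern blots, which were scaled to U4 RNA. For the mature tRNAs it tested, it reports a small but significant increase in both deletion strains. It calls the tRNA-HySeq changes in *paf1∆* cells statistically insignificant and reports none in *rtf1∆* cells.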
